A study of Homo sapiens with 6 samples.

Results

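Mitochondrial ribosomal proteins were followed in RPMI-8402, an established line from a T-cell leukaemia of lymphoblasts, here with stable Cas9. They were taken as the genes whose symbol is MRPL or MRPS followed by a number and, in a few cases, A, B or C. The count table held 86 gene IDs with such a symbol, and keeping the ID with the most reads per symbol left 76 genes of 63677, 47 named for the large subunit (MRPL) and 29 for the small subunit (MRPS). Cells received either the solvent DMSO, labelled as control, or doxycycline (DOX), which switched on guide RNAs and is labelled as a MYCN knockout, and RNA was taken at 72 hours. The guides are described in the series text as directed at both MYC and MYCN, but in the treatment text at MYC only. Each group had 3 strand-specific libraries, named here by the number in their count column: DMSO 11, 23 and 35, and DOX 12, 24 and 36. Both groups carried Cas9, and nothing states whether the cells were 1 clone or whether replicate libraries had cultures of their own. The p-values therefore reflect library-to-library spread only, possibly technical. Cells given doxycycline without guides were not analysed here, so the drug and the guides cannot be told apart.

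Mitochondria keep their own ribosome, which makes the few respiratory chain subunits that mitochondrial DNA encodes. Its ribosomal RNAs are made inside the organelle, while all of its proteins are encoded in the nucleus, made in the cytosol and imported. Some of these proteins descend from bacterial ribosomal proteins and others are found only in mitochondria. MYC family factors bind DNA with MAX at E-box sequences and are known to raise ribosome production and mitochondrial biogenesis.

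Library totals ran from 28602145 to 29204148 counts, and 15949 genes passed the filter on low counts. The 37 rows of mitochondrially encoded genes, the 2 ribosomal RNAs of this ribosome among them, held 0 counts in every library, so the RNA part of the ribosome was not measured. Of 11 T lymphoid markers, 10 were above 1 CPM (read counts scaled to library size) in every library, CD3E among them at 394 to 428 CPM, while CD1E was at or near 0. The summed markers of B cells reached at most 7.93 CPM and those of myeloid cells 1.98 CPM. The stromal list summed to 2.44 to 7.14 CPM in DMSO and 9.18 to 9.77 CPM in DOX. Nearly all of it was COL1A1, at 7.11, 2.44 and 2.77 CPM in DMSO 11, 23 and 35, with COL3A1 and LUM at 0. The part of these genes in the results below was not tested. MYCN stood at 76.8, 110 and 86.9 CPM in DMSO 11, 23 and 35 and at 46.2, 50.05 and 53.7 CPM in DOX 12, 24 and 36, and MYC averaged 245 ± 39.7 CPM in the DMSO group and 200 ± 6.57 CPM under DOX (mean ± SD, n = 3). Neither passed edgeR's quasi-likelihood test (Benjamini-Hochberg adjusted p = 0.0726 and 0.176), and DESeq2 called MYCN only (adjusted p = 8.26e-06 and 0.151). DMSO 11 lay nearer to the DOX libraries than the other DMSO libraries did for 58.8% of all genes tested and for 57.3% of the 75 ribosomal protein genes tested, so values are given with it and without it.

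As a group these genes shifted little relative to all genes. Counts were scaled to library size and the spike-in rows held 0 counts, so a change in total RNA per cell was not measured. Over all 6 libraries the members that DESeq2 called were all lower in DOX, while without DMSO 11 edgeR called members in both directions. EdgeR called 0 of the 75 tested, against 0.0125% of all genes called higher and 0.0188% called lower, and limma voom also called 0. At an unadjusted edgeR p under 0.05, 16 were lower and 2 higher, where 14.8% and 11.2% of all genes were. DESeq2 called 10 lower and 0 higher, which is 13.3% and 0% of the 75, beside 6.61% and 2.96% of all genes with an adjusted p. The authors' deposited table holds the same calls: 10 lower and 0 higher, and 10 of them are the genes DESeq2 called here. In 19 members the highest DOX library was under the lowest DMSO library, and in 3 the order was the opposite, 25.3% and 4.0% beside 15.6% and 14.6% of all genes. The median log2 fold change was -0.05 over the members and 0.00 (-0.00307) over all genes, and members ran only from -0.52 to 0.41. Without DMSO 11, edgeR called 23 members lower and 18 higher (30.7% of the 75 lower), in a fit that called 25.7% of all genes lower and 23.7% higher. In RNA of whole cultures, fewer cells of a kind and less RNA per cell cannot be told apart.

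**Figure D1:**
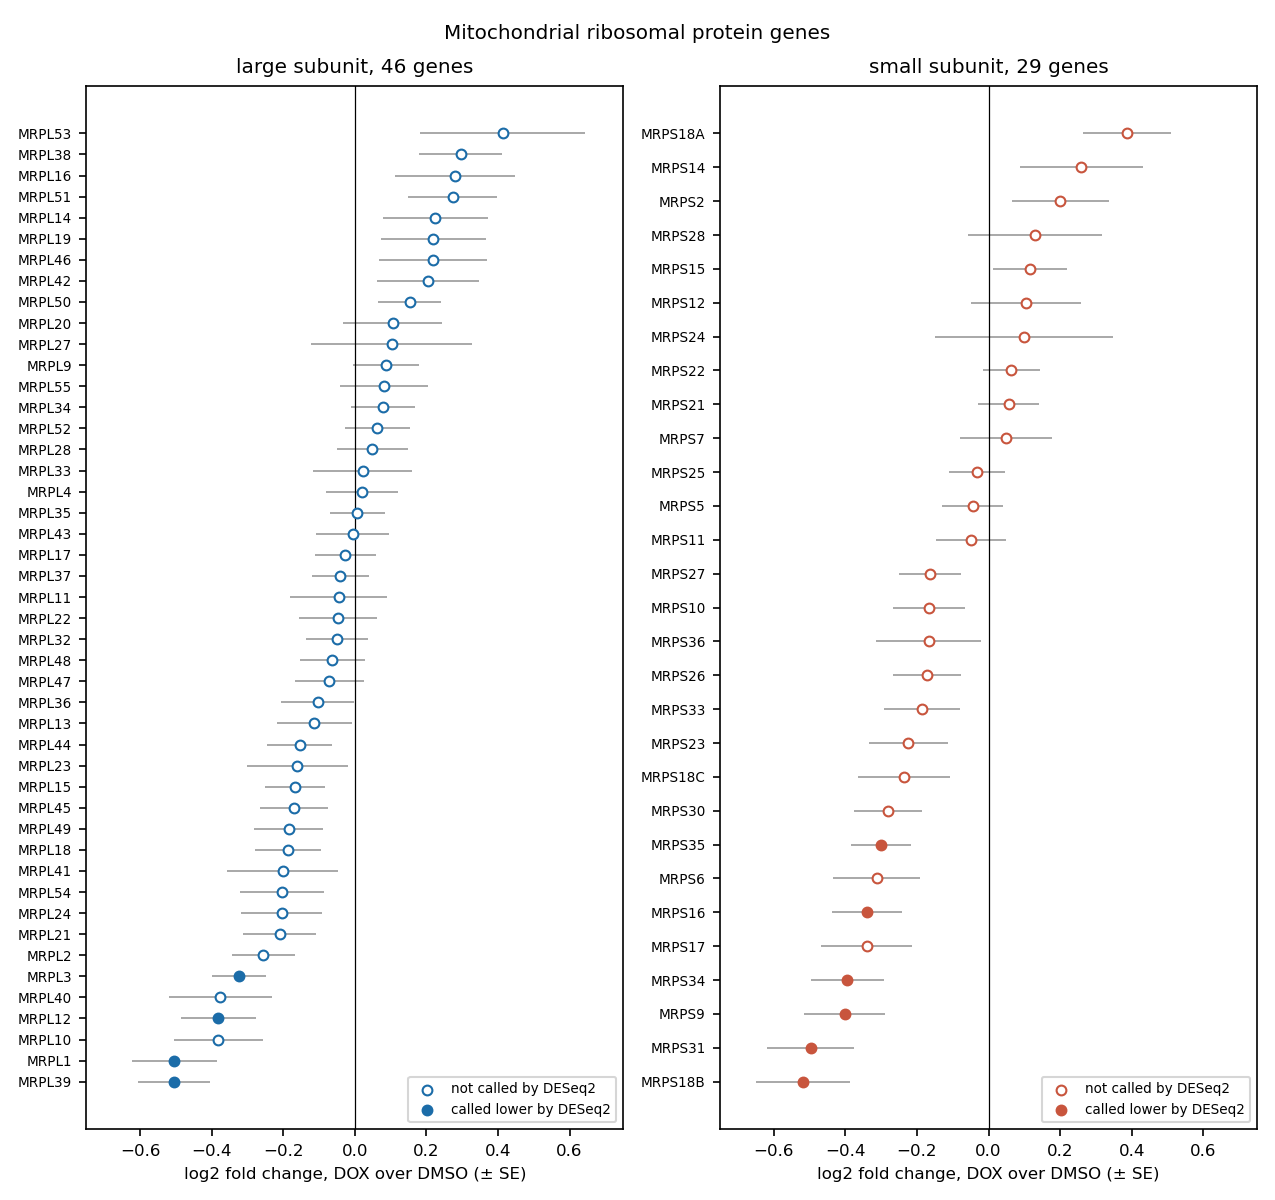
Log2 fold change of DOX over DMSO (horizontal axis, edgeR, bars are ± 1 SE) for the 46 large subunit genes and 29 small subunit genes tested, ordered by value. Filled points are the 10 genes that DESeq2 called, all of them below 0, and open points the other 65.

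The large subunit forms the peptide bond and holds the exit tunnel. DESeq2 called 4 of its 46 tested genes lower, 8.70%, near the 6.61% of all genes. Each is given by library in the order DMSO 11, 23, 35 and DOX 12, 24, 36. MRPL3 (ENSG00000114686, chromosome 3), a core protein that reaches toward the peptidyl transferase centre, was the most abundant of the 4. It stood at 213, 221 and 213 CPM in DMSO and 171, 175 and 171 CPM in DOX. The libraries within each group nearly coincided, DMSO 11 included, and the groups were well apart (log2 fold change -0.32 ± 0.08, SE; DESeq2 adjusted p = 0.00678, edgeR adjusted p = 0.0898). MRPL1 (ENSG00000169288, chromosome 4), the protein of the mobile L1 stalk, stood at 50.6, 66.8 and 61.2 CPM against 40.8, 45.9 and 39.2 CPM (-0.50 ± 0.12, DESeq2 adjusted p = 0.00932). Here DMSO 11 was the lowest DMSO library, and it still lay above every DOX library. MRPL39 (ENSG00000154719, chromosome 21), a mitochondria-specific protein near the tunnel exit, stood at 31.6, 37.4 and 35.9 CPM against 22.97, 25.7 and 25.3 CPM. Its log2 fold change of -0.50 ± 0.10 had the smallest adjusted p among the members in both tools (DESeq2 0.00285, edgeR 0.0846). MRPL12 (ENSG00000262814, chromosome 17), which forms the stalk that recruits translation factors, stood at 15.6, 16.9 and 16.5 CPM against 13.4, 11.7 and 12.5 CPM (-0.38 ± 0.11, DESeq2 adjusted p = 0.0395). In GENCODE 29, 68.2% of MRPL12's exon length is shared with another gene on the same strand, so its reads may have been assigned only in part.

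The small subunit reads the messenger RNA. DESeq2 called 6 of its 29 genes lower, 20.7%, beside 6.61% of all genes. MRPS18B (ENSG00000204568, chromosome 6), 1 of 3 human relatives of bacterial S18, showed the lowest fold change of all members at -0.52 ± 0.13 (DESeq2 adjusted p = 0.0128). It stood at 75.5, 111 and 94.9 CPM in DMSO and 64.3, 65.5 and 66.4 CPM in DOX. The DOX libraries were tightly grouped and the DMSO libraries were widely spread. MRPS31 (ENSG00000102738, chromosome 13), a mitochondria-specific protein, stood at 23.8, 30.4 and 31.3 CPM against 20.1, 19.5 and 20.9 CPM (-0.50 ± 0.12, DESeq2 adjusted p = 0.0124). MRPS34 (ENSG00000074071, chromosome 16), another mitochondria-specific protein, whose loss is known to destabilize the small subunit, stood at 71.7, 84.1 and 68.4 CPM against 58.6, 59.2 and 52.7 CPM (-0.40 ± 0.10, DESeq2 adjusted p = 0.0235). For this gene DMSO 35, not DMSO 11, was the DMSO library nearest the DOX libraries. MRPS35 (ENSG00000061794, chromosome 12), also mitochondria-specific, stood at 119, 138 and 134 CPM against 105, 105 and 107 CPM (-0.30 ± 0.08, DESeq2 adjusted p = 0.0346).

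The remaining calls were both homologues of bacterial proteins. MRPS9 (ENSG00000135972, chromosome 2), of the head of the subunit, stood at 31.1, 35.1 and 40.0 CPM in DMSO and 26.8, 28.4 and 25.1 CPM in DOX (-0.40 ± 0.11, DESeq2 adjusted p = 0.0349). MRPS16 (ENSG00000182180, chromosome 10) stood at 144, 175 and 163 CPM against 125, 135 and 121 CPM (-0.34 ± 0.10, DESeq2 adjusted p = 0.0370). In all 10 called genes the groups did not overlap, beside 15.6% of all genes with DOX lower. These genes were called from the same libraries, so this is no separate support. In 8 of them DMSO 11 was the DMSO library nearest the DOX mean, as it was for 58.8% of all genes tested. Against DMSO 11 alone the DOX mean of log2 CPM was lower by 0.17 to 0.36 in these genes (-0.36 for MRPL39 and -0.17 for MRPS35), and against the other DMSO libraries the difference ran from -0.65 to -0.33. Without DMSO 11 edgeR called all 10, in a fit on 5 of the same libraries that called 25.7% of all genes lower. Over all libraries their edgeR adjusted p-values ran from 0.0846 to 0.103.

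**Figure D2:**
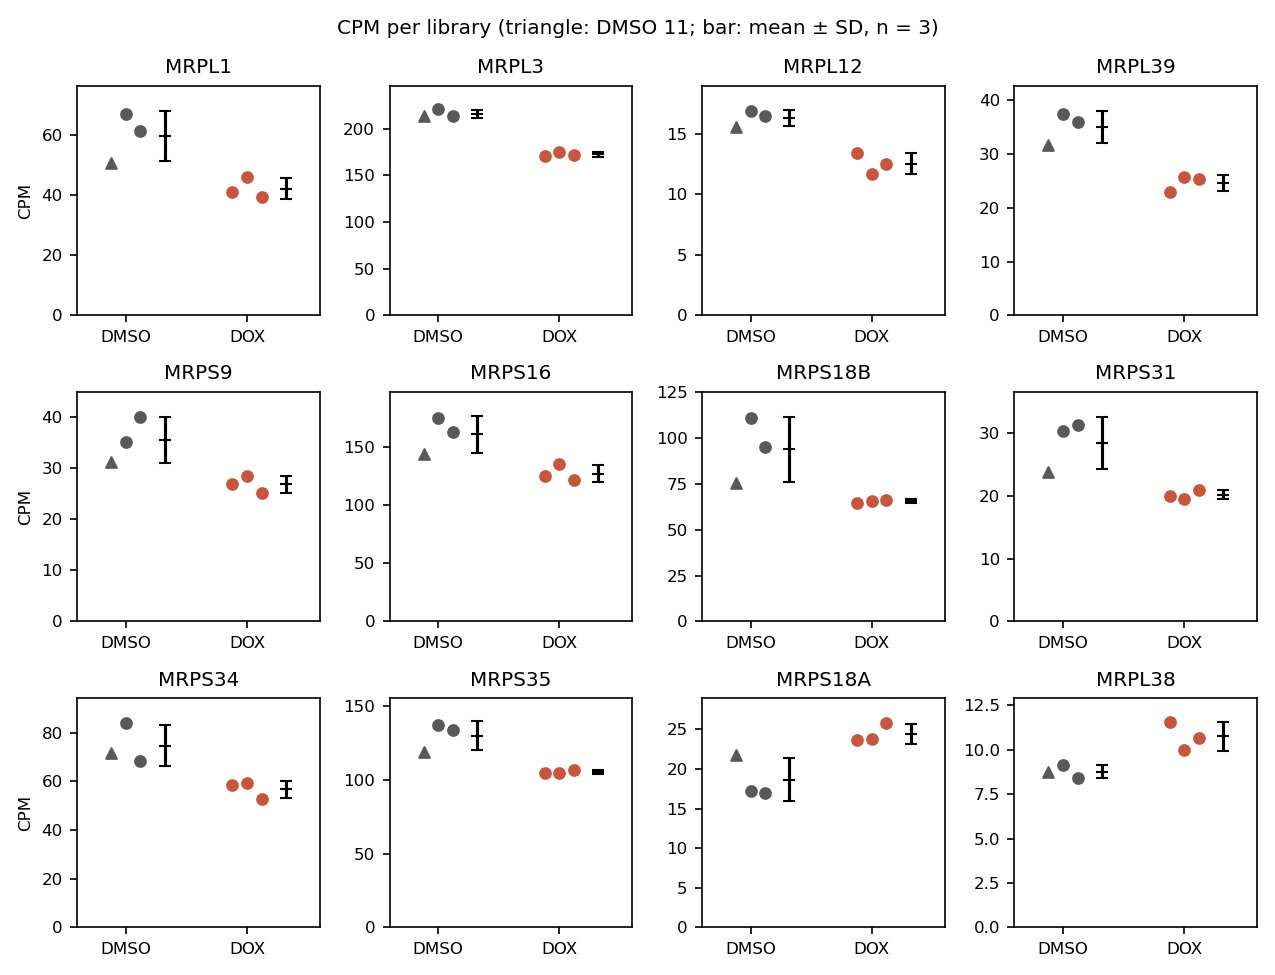
CPM (vertical axis, from 0) in each library for the 10 genes called lower by DESeq2 and for MRPS18A and MRPL38, the members with the highest fold changes among those whose groups did not overlap. Points are libraries, the triangle is DMSO 11, and the bar beside each group is the mean ± SD of 3 libraries.

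The DNA before these genes was read for known activator motifs, because the called members moved in one direction. RefSeq start sites (GRCh38.p14) matched 67 of the 76 members by symbol. MRPL2, MRPL10, MRPL13, MRPL15, MRPL21, MRPL23, MRPL35, MRPS28 and MRPS36 had no entry. The 250 bases before the start were searched on both strands for the E-box CACGTG, for GCGCA, any base and then GCGC, the core of the site of NRF1, an activator of nuclear genes for mitochondrial proteins, and for CCGGAAG, the core of sites of ETS factors such as GABP. None of these motifs overlapped another in the sequences printed here. CCGGAAG lay before 22 members, 32.8%, beside 10.7% of protein-coding promoters and 8.52% of all 35116 promoters in the table. The NRF1 core lay before 7 members, 10.4%, beside 6.56% of protein-coding promoters. CACGTG lay before 6 members, 8.96%, beside 7.37%, and before 0 of the 10 called genes. CCGGAAG lay before 3 of the 10 called genes and before 19 of the other 57 matched members. The median log2 fold change was -0.06 in members with CCGGAAG and -0.05 in members without it. For the E-box it was -0.14 in the 6 members with it and -0.04 in the others, and for the NRF1 core -0.14 and -0.04. MRPL30, which holds the NRF1 core and CCGGAAG, was not tested and enters none of these medians. No test of these differences was made. These are letters in a window and not measured binding.

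The 4 called members with any of these motifs and the MRPS18 relatives that hold one are printed 5′ to 3′ on the strand of the gene, ending at the base before the RefSeq start, with motif letters in capitals. They show how close to the start the letters lie. MRPL3 (chr3:131502972-131503221, minus strand) and MRPS31 (chr13:40771191-40771440, minus) each hold CCGGAAG from 32 bases before the start. MRPS34 (chr16:1773135-1773384, minus) holds it 3 times, on the other strand, from 71, 29 and 19 bases before the start. MRPS9 (chr2:105037819-105038068, plus) holds the NRF1 core on the other strand from 40 bases before the start. MRPS18A (chr6:43687792-43688041, minus) holds CCGGAAG at 31 bases, and MRPS18C (chr4:83455808-83456057, plus) holds CCGGAAG at 222 and the E-box at 179 bases.
MRPL3: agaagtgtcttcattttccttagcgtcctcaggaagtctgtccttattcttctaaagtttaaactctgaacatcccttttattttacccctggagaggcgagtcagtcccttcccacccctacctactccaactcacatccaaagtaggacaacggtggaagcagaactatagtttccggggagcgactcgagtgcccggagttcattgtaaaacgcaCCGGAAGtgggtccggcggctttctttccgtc
MRPS31: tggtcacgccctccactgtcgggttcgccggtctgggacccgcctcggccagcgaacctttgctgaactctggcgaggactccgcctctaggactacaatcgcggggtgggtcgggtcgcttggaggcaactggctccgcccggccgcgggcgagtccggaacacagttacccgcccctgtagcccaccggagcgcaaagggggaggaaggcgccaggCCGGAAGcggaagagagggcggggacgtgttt
MRPS34: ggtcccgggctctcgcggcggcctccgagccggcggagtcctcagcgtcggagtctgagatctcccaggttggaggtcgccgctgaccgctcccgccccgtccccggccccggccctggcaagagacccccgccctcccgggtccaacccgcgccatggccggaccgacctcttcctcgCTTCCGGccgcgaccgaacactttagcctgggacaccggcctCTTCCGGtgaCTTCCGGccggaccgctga
MRPS9: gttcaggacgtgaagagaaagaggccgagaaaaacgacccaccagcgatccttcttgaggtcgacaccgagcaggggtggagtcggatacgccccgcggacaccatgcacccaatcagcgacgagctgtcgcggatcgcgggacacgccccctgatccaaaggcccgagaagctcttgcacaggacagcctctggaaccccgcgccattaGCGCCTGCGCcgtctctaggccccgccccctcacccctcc
MRPS18A: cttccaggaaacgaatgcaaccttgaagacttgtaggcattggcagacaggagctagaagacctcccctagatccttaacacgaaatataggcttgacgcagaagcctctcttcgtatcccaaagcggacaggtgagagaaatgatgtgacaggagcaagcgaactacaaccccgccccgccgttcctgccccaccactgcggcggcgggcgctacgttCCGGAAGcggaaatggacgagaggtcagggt
MRPS18C: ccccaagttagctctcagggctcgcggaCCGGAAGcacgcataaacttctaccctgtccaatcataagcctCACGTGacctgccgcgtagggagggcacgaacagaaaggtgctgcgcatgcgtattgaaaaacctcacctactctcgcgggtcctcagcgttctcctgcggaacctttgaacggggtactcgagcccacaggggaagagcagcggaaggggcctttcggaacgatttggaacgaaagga

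The 3 relatives of bacterial S18 did not share a direction. Ribosome structures place MRPS18C and MRPS18B in the small subunit and MRPS18A, despite its name, in the central protuberance of the large subunit. MRPS18A (ENSG00000096080, chromosome 6) stood at 21.8, 17.2 and 16.9 CPM in DMSO and 23.6, 23.7 and 25.8 CPM in DOX. All DOX libraries lay above all DMSO libraries, at a log2 fold change of 0.39 ± 0.12 that neither tool called over all libraries (edgeR adjusted p = 0.116, DESeq2 adjusted p = 0.0785). Without DMSO 11, edgeR called it higher at 0.51 (adjusted p = 6.08e-05). MRPS18C (ENSG00000163319, chromosome 4) stood at 40.2, 55.1 and 48.1 CPM against 37.2, 44.3 and 40.3 CPM, with overlapping groups (-0.24 ± 0.13, edgeR adjusted p = 0.269). The log2 ratio of MRPS18A to MRPS18B was -1.79, -2.68 and -2.48 in DMSO 11, 23 and 35 and -1.44, -1.46 and -1.36 in DOX, a difference of 0.89 between the group means. The two-sided exact permutation test of this ratio gave p = 0.1, the smallest that 3 libraries against 3 allow (p = 0.15 adjusted over the 3 pairs). For MRPS18A over MRPS18C the difference was 0.62 (exact permutation p = 0.2) with DMSO 11 at -0.88 among the DOX values, and for MRPS18C over MRPS18B it was 0.27 (exact permutation p = 0.1). MRPS30, the other MRPS protein that structures place in the large subunit, stood at 63.1, 71.3 and 78.0 CPM against 58.8, 57.4 and 58.5 CPM (-0.28 ± 0.09, DESeq2 adjusted p = 0.0880).

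Of the 75 members tested, 29 had a fold change above 0, but only 3 had groups that did not overlap with DOX higher. MRPL38, of the central protuberance and named after its values were seen, stood at 8.75, 9.11 and 8.38 CPM in DMSO and 11.6, 9.98 and 10.7 CPM in DOX (0.30 ± 0.12, edgeR adjusted p = 0.160). MRPL50, a mitochondria-specific protein, stood at 31.7, 28.56 and 30.7 CPM against 32.5, 34.8 and 33.8 CPM (0.15 ± 0.09, edgeR adjusted p = 0.290). MRPS18A is the other of these 3. In others the position of DMSO 11 set the value. MRPL16, chosen after its values were seen, stood at 63.6 CPM in DMSO 11 and 40.5 and 40.9 CPM in DMSO 23 and 35, with 59.3, 59.96 and 56.7 CPM in DOX. Its log2 fold change was 0.28 ± 0.17 over all libraries (edgeR adjusted p = 0.310) and 0.53 without DMSO 11 (edgeR adjusted p = 3.92e-06).

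The comparison of the subunits gave a small difference. The median log2 fold change was -0.05 over the 46 large subunit genes and -0.17 over the 29 small subunit genes, and 27 and 19 of them were below 0 (58.7% and 65.5%). The groups did not overlap, with DOX lower, in 9 large and 10 small subunit genes (19.6% and 34.5%, beside 15.6% of all genes), and with DOX higher in 2 and 1 (4.35% and 3.45%, beside 14.6%). The share of the large subunit with DOX lower thus lay near that of all genes. Leaving out 1 library moved the median of the large subunit to -0.027 (DMSO 11), -0.031 (DMSO 23), -0.11 (DMSO 35), -0.015 (DOX 12), -0.091 (DOX 24) or -0.038 (DOX 36). That of the small subunit moved to -0.085 (DMSO 11), -0.12 (DMSO 23), -0.14 (DMSO 35), -0.12 (DOX 12), -0.19 (DOX 24) or -0.15 (DOX 36). The difference of the medians, small minus large, was -0.12. It was -0.058 without DMSO 11 and -0.037 without DMSO 35, so 1 library moved it by over 1.5 times, and no test of it was made. The summed CPM of the small subunit divided by that of the large was 0.657, 0.706 and 0.721 in DMSO 11, 23 and 35 and 0.664, 0.640 and 0.655 in DOX 12, 24 and 36. DMSO 11 thus lay among the DOX libraries on this measure. Counting MRPS30 and MRPS18A with the large subunit left both medians at the same values. It could not do otherwise, because MRPS30 (-0.28) lay below and MRPS18A (0.39) above both medians. Summed over all members, the level was 4213, 4197 and 3945 CPM in DMSO and 3786, 4022 and 3761 CPM in DOX, with DOX 24 above DMSO 35.

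**Figure D3:**
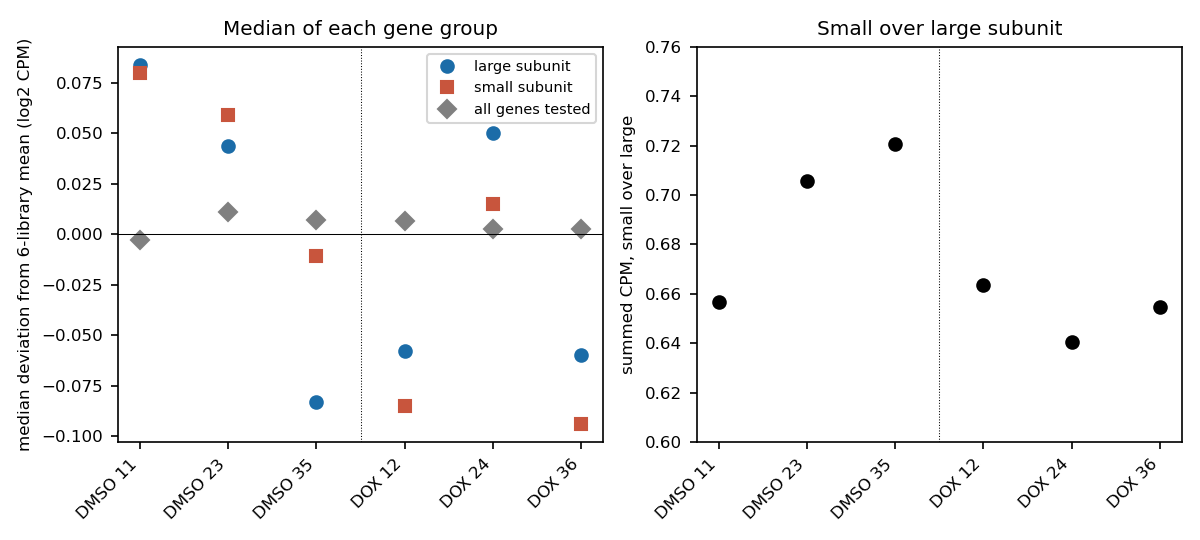
Left, the median over genes of each library's deviation from the mean of the 6 libraries (log2 CPM) for large subunit genes, small subunit genes and all genes tested. Right, summed CPM of the small over the large subunit on an axis that starts at 0.60, where DMSO 11 (0.657) sits among the DOX libraries and DMSO 23 and DMSO 35 lie above all other libraries.

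**Figure D4:**
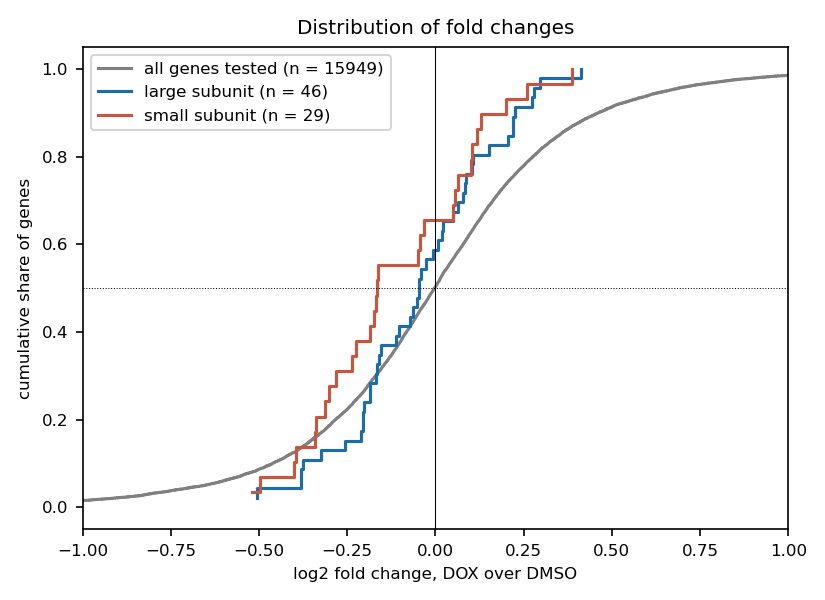
Cumulative share of genes (vertical axis) against log2 fold change of DOX over DMSO for the large subunit, the small subunit and all genes tested. The curve of the small subunit crosses 0.5 at -0.17 and that of the large at -0.05, and both are steeper than the curve of all genes.

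The values within each subunit are described by origin and position, with no test of the differences. Among genes named for the small subunit, 9 of the 10 mitochondria-specific ones were below 0, with a median of -0.20. That is 90%, beside 50.3% of all genes tested. DESeq2 called 3 of them lower (30%, beside 6.61% of all genes). Of the 18 bacterial homologues 9 were below 0 and 3 were called lower (16.7%), with a median of 0.00 (0.00246). MRPS36 was counted in neither class. These classes follow the symbol. MRPS30 (-0.28) is therefore among the 10 and MRPS18A (0.39) among the 18, although structures place both in the large subunit. In the large subunit the medians by origin were close, at -0.05 over 29 bacterial homologues and -0.04 over 17 mitochondria-specific genes. All 8 tested genes of the tunnel exit were below 0 over all libraries, from -0.50 for MRPL39 to -0.03 for MRPL17, although MRPL39 alone was called. Without DMSO 11 their median went from -0.16 to -0.13, and MRPL23, named after its values were seen, was above 0 at 0.019. In the stalk, MRPL10, which anchors the copies of MRPL12, stood at 56.1, 72.9 and 69.0 CPM against 44.5, 52.5 and 55.0 CPM (-0.38 ± 0.12, DESeq2 adjusted p = 0.0641). MRPL53, the member with the highest fold change, named for that after the values were seen, at 3.11, 2.24 and 1.72 CPM against 3.50, 2.91 and 2.99 CPM, went the other way (0.41 ± 0.23, DESeq2 adjusted p = 0.341). The central protuberance, with MRPS18A counted here too, held both directions, from -0.38 for MRPL40 to 0.39 for MRPS18A. Over all libraries 0 of its 9 genes were called, where DESeq2 called 6.61% of all genes lower and 2.96% higher. Without DMSO 11 edgeR called 5 higher and 2 lower (55.6% and 22.2%, beside 23.7% and 25.7% of all genes). The median went from 0.08 to 0.22. MRPS36, which carries a mitoribosomal name but is now known as a subunit of the 2-oxoglutarate dehydrogenase complex, was at -0.17 ± 0.15 (DESeq2 adjusted p = 0.536).

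Levels per length spanned a wide range although these proteins are thought to be present once each in the particle, apart from MRPL12. Levels are given as mean CPM over the 6 libraries per kb of exon length in GENCODE 29, which held 74 of the 76 IDs, all but MRPL45 and MRPS21. This length merges all annotated exons of a gene, whether or not these cells use them. MRPL42, named after its values were seen, had 16.4 kb, which put its 76.8 CPM at 4.69 CPM per kb. The part of the length measure in the range was not tested. The median was 16.0 CPM per kb over 46 large subunit genes and 13.6 over 28 small subunit genes. The highest large subunit genes were MRPL51 at 107, MRPL15 at 72.8 and MRPL3 at 71.5 CPM per kb, and the highest small subunit genes were MRPS34 at 59.96, MRPS35 at 59.5 and MRPS16 at 51.5 CPM per kb. MRPL51 stood at 176, 144 and 132 CPM in DMSO and 170, 201 and 175 CPM in DOX (log2 fold change 0.27 ± 0.12, edgeR adjusted p = 0.202, and 0.40 with an adjusted p of 0.00021 without DMSO 11). MRPL15 was at -0.17 ± 0.08 (edgeR adjusted p = 0.239, and -0.18 with an adjusted p of 0.0399 without DMSO 11).

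At the low end, MRPL30 stood at 0.146, MRPS24 (the homologue of bacterial S3) at 0.718, MRPL46 at 1.27 and MRPS17 at 5.34 CPM per kb. MRPL30 was the only member that missed the filter on low counts. The chosen ID (ENSG00000273155) held 17 reads over the 6 libraries, and the other ID with this symbol (ENSG00000185414) held 4. GENCODE 29 gives the symbol MRPL30 to the latter ID only, and 83.7% of the exon length of the former is shared with another gene on the same strand. Members that share at least 10% of their exon length with another gene on the same strand numbered 10, with a median of 4.0 CPM per kb and a range of 0.146 to 17.2. The other 64 had a median of 16.5 and a range of 4.69 to 107. The level of a gene with shared exons therefore cannot be told apart from reads left unassigned or given to its neighbour. Over both strands MRPS18A shared 47.0% and MRPS18C 40.2% of their exon length, and MRPS18B 0%. The strand setting of the counting is not given, so the same limit may hold for MRPS18A and MRPS18C. MRPS17 stood at 12.9, 12.3 and 13.4 CPM against 9.77, 11.7 and 9.08 CPM (-0.34 ± 0.13, DESeq2 adjusted p = 0.126), MRPL46 was at 0.22 ± 0.15, and MRPS24 at 0.10 ± 0.25, which turned to -0.053 without DMSO 35 and -0.083 without DOX 36.

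**Figure D5:**
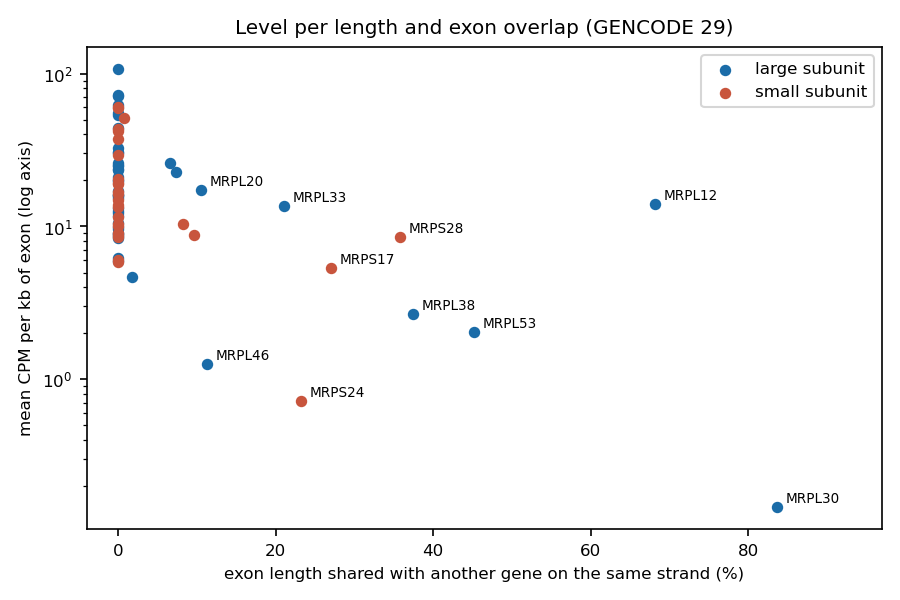
Mean CPM per kb of exon (vertical log axis) against the percentage of exon length shared with another gene on the same strand (horizontal axis) for the 74 members with a GENCODE 29 entry. Named points share at least 10%, and 5 of the lowest points, MRPL30, MRPS24, MRPL46, MRPL53 and MRPL38, are among them.

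The wider machinery of mitochondrial protein synthesis was read from 4 lists chosen apart from the symbol rule. DESeq2 called 5 of their 67 tested genes lower and 0 higher, and 7.46% lower is near the 6.61% of all genes (2.96% of all genes were called higher). Ribosome subunits with other symbols numbered 7, with 0 called in either tool and a median of -0.11. DAP3, a GTP-binding protein of the small subunit, was at -0.28 ± 0.10 (DESeq2 adjusted p = 0.0920) and ICT1, a peptidyl-tRNA hydrolase built into the large subunit, at -0.28 ± 0.09 (DESeq2 adjusted p = 0.0915). Of 28 assembly factors DESeq2 called 3 lower and 0 higher (10.7% and 0%), with a list median of -0.07. RPUSD3, a pseudouridine synthase relative, stood at 87.7, 105 and 102 CPM in DMSO and 67.7, 71.2 and 68.2 CPM in DOX (-0.51 ± 0.09, DESeq2 adjusted p = 0.000647). GTPBP10, a GTPase of large subunit assembly, stood at 38.8, 76.9 and 76.9 CPM against 35.4, 34.9 and 34.7 CPM (-0.88 ± 0.23, DESeq2 adjusted p = 0.00527). In GTPBP10 the DMSO 11 value lay close to the DOX libraries, while in RPUSD3 it was nearer to the other DMSO libraries. MRM1, a ribosomal RNA methyltransferase, was called at -0.46 ± 0.12 (DESeq2 adjusted p = 0.0201).

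Of 17 translation factors DESeq2 called 2 lower and 0 higher (11.8% and 0%, beside 6.61% and 2.96% of all genes), with a median of -0.09. MTIF2, which brings the initiator tRNA to the ribosome, stood at 29.19, 45.3 and 44.2 CPM in DMSO and 22.6, 25.04 and 24.6 CPM in DOX (-0.72 ± 0.16, DESeq2 adjusted p = 0.00324). MRRF, the ribosome recycling factor, stood at 47.8, 64.7 and 69.2 CPM against 39.8, 39.5 and 36.4 CPM (-0.65 ± 0.14, DESeq2 adjusted p = 0.00208). In both genes DMSO 11 was the lowest DMSO library and still lay above every DOX library. Of 15 genes for expression and upkeep of mitochondrial DNA, 0 were called, with a median of -0.10. C10orf2, the helicase Twinkle, was at -0.25 ± 0.08 (DESeq2 adjusted p = 0.0816) and SUPV3L1, a helicase of RNA decay, at -0.23 ± 0.08 (DESeq2 adjusted p = 0.117). EdgeR called 0 genes of these 4 lists over all libraries. At an unadjusted p under 0.05, 18 were lower and 2 higher (26.9% and 2.99%, beside 14.8% and 11.2% of all genes). Without DMSO 11 it called 23 lower and 14 higher (34.3% and 20.9%, beside 25.7% and 23.7%).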

How the data were processed

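Total RNA of 6 libraries was sequenced as strand-specific pairs. The deposited read counts per gene are unnormalized, and the submitters' processing notes name STAR 2.5.2a, featureCounts, DESeq2 1.12.4 and hg19. The annotation release and strand setting are not given in the sources used here. The authors' deposited DESeq2 table gives a mean normalized signal, a log2 fold change with its error, a test score, and raw and adjusted p-values per gene, of which the fold changes and adjusted p-values were used. Symbols came from that table.

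The members and gene lists were chosen with earlier results of these data known. Count columns show their group but a number found in no label, so they were assigned to groups only. The 92 spike-in rows, at 0, were left out. Counts were tested in R 4.3.3 with edgeR 4.0.16 (TMM scaling, filterByExpr, robust quasi-likelihood F test, Benjamini-Hochberg adjustment over all 15949 genes, threshold 0.05). The SE is the absolute log2 fold change over the square root of F. CPM is the count scaled to the library total times the TMM factor, and log2 CPM has a prior count of 2. Alternatives were DESeq2 1.42.0, limma 3.58.1 voom, other scalings, filters and a threshold of 0.01, each library left out, and a replicate block on assumed pairs. The code was tested on simulated data.

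Named genes were MYC, MYCN, members called by edgeR or DESeq2, per subunit the 4 largest changes each way among members of at least 10 CPM with groups apart, the 3 highest and 2 lowest per length, the MRPS18 genes and MRPS30, members missing the filter, and in each related list the called genes or else the 2 of smallest p. Exon lengths came from GENCODE 29, whose build differs from hg19, so none of its coordinates are printed, and promoters from RefSeq (GRCh38.p14). The 10% limit on shared exon length was chosen after the data were seen.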

Additional observations from a re-analysis of the deposited data

How the results depend on the processing

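EdgeR called 0 members over all libraries. DESeq2 called 10 lower (4 large, 6 small subunit) and edgeR without a filter called 9 lower (4 large, 5 small), 8 of them shared with DESeq2. In the related lists both called 5 lower. These fits also called more of all genes in either direction. DESeq2 called 1362 of 14234 and edgeR without a filter 1761 of 31682, where the main fit called 5 of 15949. Leaving out each library in turn gave 0 to 23 members lower and 0 to 18 higher (large subunit 0 to 12 and 0 to 11, small subunit 0 to 11 and 0 to 7), and 0 to 23 lower and 0 to 14 higher in the related lists, with calls only without DMSO 11. Of all genes, the fit without DMSO 11 called 8109 of 16412 in either direction, and the fits without another library called 0. The members' median ran from -0.12 to -0.04 in these fits, that of the large subunit from -0.11 to -0.015, that of the small subunit from -0.19 to -0.085, and small minus large (-0.058 without DMSO 11) from -0.11 to -0.037. MRPS24 ran from -0.083 to 0.31, at -0.053 without DMSO 35 and -0.083 without DOX 36. MYCN passed the threshold under DESeq2 (-0.87), without a filter (-0.88) and without DMSO 11 (-0.98), within a range of -0.98 to -0.72. The cause of these differences was not tested. Other scalings moved the median of all genes by at most 0.034 and left the members and related lists at 0 calls, with 5 or 6 genes called of 15949. The count columns carry none of the labels' replicate numbers as such. A replicate block with pairs assumed from the first digit of the column numbers, chosen after seeing the data, called 0 members and 3 genes of 15949 where 5 were called without it, with a members' median of -0.05. Deviations of assumed pairs correlated at -0.0088 to 0.00059, and no DMSO library correlated best with the DOX library of its own number. Groups of 3 libraries and reads of genes with shared exons limit these values.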
